A study of Mus musculus with 6 samples.

Results

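The proteasome subunit genes were examined as a set of 39, comprising the core particle, its immune subunits, the cap and the activators. Among them, Psma8 and Psme4 are grouped here as the 2 germline forms. Members were all probe sets of the array whose platform gene symbol is exactly one of these names. This gave 82 probe sets for 38 genes, out of 18193 genes with a probe set of their own. Psme2 has no probe set that names it alone and was not analysed here. Of the 38 genes, 17 had 1 probe set and 21 had several. Each gene is represented by its brightest probe set, judged by the mean of the 6 arrays, unless another is named.

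Affymetrix arrays measured RNA of whole testis from mice aged 5 weeks, 3 arrays for Phf13 knockout and 3 for wild type. The PHD finger protein encoded by Phf13 binds histone H3 methylated at its tail. The sources used here do not give how the knockout allele was made, in which cells the gene is missing, or the strain. The question is how loss of Phf13 changes transcript levels in the testis. Values are log2 per probe set, and brightness differs between probe sets for reasons of design, so no gene's level is set against another gene's.

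The proteasome degrades proteins tagged with ubiquitin. Its core is a barrel of stacked rings: the outer alpha rings gate the entrance, and the inner beta rings hold the cutting sites, carried by Psmb5, Psmb6 and Psmb7. A cap of ATPases and other subunits recognises, unfolds and feeds in substrates. Interferon induces Psmb8, Psmb9 and Psmb10, which replace the cutting subunits, and the activator made of Psme1 and Psme2. In male germ cells Psma8 takes the place of Psma7 in the alpha ring, and Psme4, an activator known for its high level in testis, binds the core; both are known for roles in spermatogenesis.

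Promoter sequence is shown for the activator Psme4, and for Psmb8, Psmb9 and Psme1, 3 interferon-inducible members whose levels in knockout 2 and knockout 3 lay above those in every other array. RefSeq (GRCm38.p6) gave windows for 32 of the 39 members, 35 in all, each with 250 bases before and 50 after a gene's start; the 250 bases upstream are printed, 5′ to 3′ on the gene's strand. Capitals mark matches to any of 7 short motifs, searched on both strands: the ETS core CCGGAAG, the GC box GGGCGG, the CCAAT box, the MYB core AACNGNC, an antioxidant-type core TGACNNNGC, an IRF-type repeat of GAAA, any 2 bases and GAAA, and the STAT palindrome TTCNNNGAA.
Psme4 (chr11:30771525-30771774, plus strand): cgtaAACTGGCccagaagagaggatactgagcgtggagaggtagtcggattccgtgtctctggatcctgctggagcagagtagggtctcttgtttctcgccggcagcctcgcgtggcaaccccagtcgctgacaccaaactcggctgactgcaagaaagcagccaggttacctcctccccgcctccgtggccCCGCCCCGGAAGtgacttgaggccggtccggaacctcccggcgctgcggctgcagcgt
Psmb8 (chr17:34197945-34198194, plus strand): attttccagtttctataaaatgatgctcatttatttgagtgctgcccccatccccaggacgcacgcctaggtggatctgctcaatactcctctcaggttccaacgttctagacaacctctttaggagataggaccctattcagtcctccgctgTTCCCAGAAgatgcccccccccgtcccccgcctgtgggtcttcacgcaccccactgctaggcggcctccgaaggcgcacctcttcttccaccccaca
Psmb9 (chr17:34187331-34187580, minus strand): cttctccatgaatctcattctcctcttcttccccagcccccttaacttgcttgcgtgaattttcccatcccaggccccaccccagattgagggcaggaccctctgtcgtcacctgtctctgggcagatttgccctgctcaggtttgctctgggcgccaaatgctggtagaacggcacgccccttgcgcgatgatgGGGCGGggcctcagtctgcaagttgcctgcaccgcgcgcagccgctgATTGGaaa
Psme1 (chr14:55578244-55578493, plus strand): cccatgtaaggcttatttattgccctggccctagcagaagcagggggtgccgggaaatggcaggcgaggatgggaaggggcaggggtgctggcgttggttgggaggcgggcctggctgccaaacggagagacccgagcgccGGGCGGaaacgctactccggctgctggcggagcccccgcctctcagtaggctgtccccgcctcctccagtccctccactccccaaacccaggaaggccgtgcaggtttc

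The ETS core was present in 12 of the 35 member windows (34.3%), in 6.91% of all 32851 windows and in 8.98% of the 21262 windows of protein-coding genes. Its carriers were 11 genes, among them Psme4, Psme3, Psmd11 and Psmc2, and in Psme4 the match overlaps a GC box by 1 base. The GC box was present in 19 member windows (54.3%, against 32.7% of all and 42.6% of coding windows). For the other motifs the shares of member windows, all windows and coding windows were 34.3%, 33.8% and 35.4% for CCAAT, 31.4%, 27.7% and 27.2% for the MYB core, and 11.4%, 10.2% and 10.4% for the antioxidant-type core. The IRF-type repeat was found in 2 member windows (Psmb3 and Psmd4; 5.71%, against 2.98% of all and 2.96% of coding windows) and the STAT palindrome in 1 (Psmb8; 2.86%, against 7.02% and 6.58%). The Psmb9 window shares 275 of its 300 bases, on opposite strands, with that of Tap1, the peptide transporter gene beside it. These motifs were chosen after a first look at a longer set, and a match describes the letters and not a bound site.

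The labels, the arrays and the tissue were checked first. Phf13 stood at 9.55, 9.47 and 9.56 in wild type and at 6.71, 6.60 and 6.55 in knockout, so the target followed the genotype label on all 6 arrays. The arrays also fall into sets that are tied to genotype only in part: wild type 3, knockout 2 and knockout 3 carry the last run of consecutive codes in their sample titles. In these 3 the mean of the 18S control probe sets was 9.69 to 10.71, against 12.03 to 12.67 in the other 3. The actin controls, 3′ end minus 5′ end, separated the same arrays, at 0.56 to 0.59 against 0.75 to 0.89. Spermatid markers marked the tissue in all arrays, with list means from 12.53 to 12.57. Differences inside the last run of title codes and outside it are given below for the subunit contrasts and for many of the genes described one by one. Where they are not given, the difference is that over all 6 arrays.

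No proteasome subunit passed the threshold in knockout. Of the 82 member probe sets, 0 had a limma adjusted p under 0.05, beside 0.0999% of all 45037 probe sets tested, and the smallest adjusted p of a member was 0.213. At an unadjusted p under 0.05 in the same limma fit, 0 member probe sets were higher and 6 were lower in knockout (7.32%), where the whole array had 6.81% higher and 8.31% lower. The share of lower members was thus near the background. In whole testis, fewer cells of a type and less RNA per cell cannot be told apart. The member counts and the shares of the whole array both moved when single arrays were left out. Without knockout 1, 8 of the 82 member probe sets were higher at that unadjusted p, beside 9.69% of the array. Without wild type 2, 3 of the 82 were lower (beside 4.76%), and without wild type 3, 10 were lower (beside 11.5%).

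The differences were small in both directions. Over the 38 genes the median log2 difference, knockout minus wild type, was 0.00, and over all genes it was 0.01. In all, 20 genes lay above 0 and 17 below, from -0.28 for Psmd13 to 0.38 for Psme1. For 27 of the 38 (71.1%) the difference was under 0.1 in size, against 41.7% of all genes. Of the 33 members with a mean level above 9, 26 (78.8%) were under 0.1, against 50.3% of the 3518 genes at such levels. The 95% confidence intervals of the limma fit lay wholly inside ±0.4 for 30 of the 38 genes and inside ±0.5 for 33, so changes beyond these sizes lie outside the intervals of these genes. The half-widths ran from 0.18 to 0.38.

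**Figure D1:**
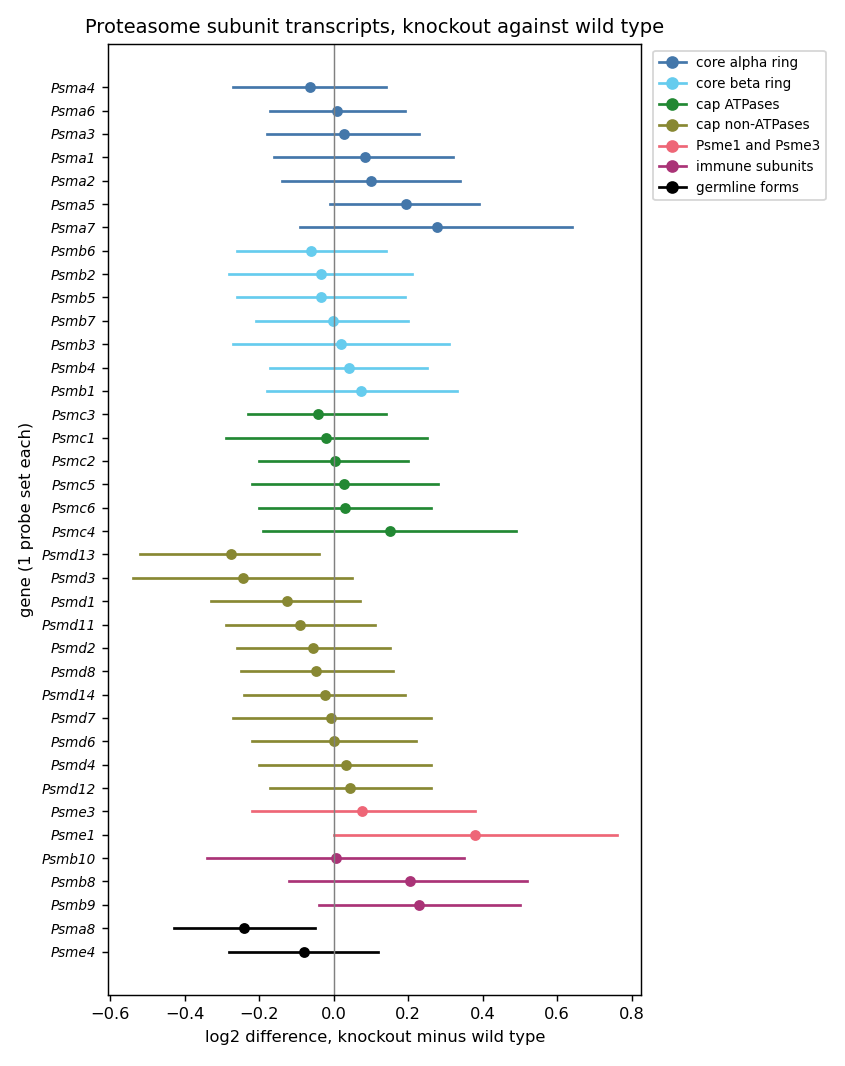
Log2 difference, knockout minus wild type, of the 38 proteasome genes (1 probe set each), coloured by role; the point is the difference and the line its 95% confidence interval from limma, from 3 arrays per genotype. Most points lie within 0.1 of 0, with Psmd13 at -0.28 and Psme1 at 0.38 as the ends of the range, and the interval excludes 0 for 2 genes, Psma8 and Psmd13.

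The germline alpha subunit Psma8 was lower on every knockout array. Its only probe set stood at 11.22, 11.21 and 11.19 in wild type and at 11.04, 10.95 and 10.91 in knockout. The wild-type arrays lay within 0.02 (SD) of 11.21, and the groups did not overlap. The log2 difference was -0.24 (SE 0.08, 95% interval -0.43 to -0.05), or 0.847 times the wild-type level, with limma's adjusted p = 0.261. It was -0.18 among the 3 arrays outside the last run of title codes and -0.26 inside it, and from -0.28 to -0.21 over 14 alternative fits, always short of the adjusted threshold.

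Psma7, the subunit whose place Psma8 takes, varied between knockout arrays. It stood at 8.79, 8.89 and 9.05 in wild type and at 8.83, 9.27 and 9.46 in knockout, so that knockout 1 lay among the wild-type arrays and the other two above them. The log2 difference was 0.28 (SE 0.16, limma adjusted p = 0.450), with -0.01 outside the last run and 0.32 inside it, and from 0.14 without knockout 3 to 0.455 without knockout 1. Its second probe set gave 0.26. Within an array, Psma8 minus Psma7 was 2.43, 2.32 and 2.14 in wild type and 2.21, 1.68 and 1.45 in knockout. This contrast of probe set values, which shows unequal change and no ratio of amounts, differed by -0.52 between genotypes (SE 0.24; exact two-sided permutation p = 0.2, and 0.267 adjusted over 4 such pairs). The smallest p that 3 against 3 allows is 0.1, so no such pair could pass. The contrast was -0.17 outside the last run and -0.57 inside it. It was -0.37 with the title sets as a block, and leaving out an array moved it from -0.35 without knockout 3 to -0.73 without knockout 1.

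Psme4, the activator known for its high level in testis, had 6 probe sets, all with a negative difference over the 6 arrays. The sign was not uniform inside the last run of title codes. From bright to dim the differences there were -0.00, -0.12, -0.15, 0.34, 0.14 and -0.30. Outside it they were -0.10, -0.04, -0.14, -0.99, -0.36 and -0.54. The brightest stood at 12.04, 12.07 and 11.93 in wild type and at 11.95, 11.96 and 11.89 in knockout, with overlapping groups and a log2 difference of -0.08 (SE 0.09, limma adjusted p = 0.695). The next in brightness differed by -0.11 and -0.23. The largest difference was that of the dimmest probe set, with 3.76, 3.59 and 3.24 in wild type and 3.14, 2.87 and 3.02 in knockout. It differed by -0.52 (SE 0.14, limma adjusted p = 0.213), and its adjusted p was 0.030 without wild type 3 and 0.0261 with array weights. Those fits called 2.61% and 7.07% of all probe sets, against 1.22% and 2.44% of the member probe sets. All 6 arrays held this probe set near or under 3.70, the lower quartile of all probe sets, where no background level was used.

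Markers of other cells were measured beside the germline forms. Of 11 spermatocyte markers, 4 were lower and 0 higher at an unadjusted p under 0.05 in limma. Beside them, 1587 of all 18193 genes were lower and 1561 higher at that p. Of the 11, 7 lay below 0 and 4 above, with a median of -0.07. Aurkc, a kinase of meiosis, differed by -0.42 (limma adjusted p = 0.168) and Ccna1, a cyclin of male meiosis, by -0.28 (limma adjusted p = 0.262). The mean of the list was 11.03 to 11.12 in wild type and 10.94 to 10.97 in knockout, so both it and Psma8 had groups that did not overlap. The 12 spermatid markers had a median of 0.01, with 0 past that p in either direction; the smallest p were those of Tssk6 (-0.15) and Gapdhs (-0.12). Of 12 Sertoli cell markers, 11 lay above 0 with a median of 0.39, and 7 were higher at that p, with 0 past the adjusted threshold. Cst12 stood at 0.58 and Inhbb at 0.41 as differences, and list means ran from 8.34 to 8.36 in wild type and from 8.62 to 8.75 in knockout. The part of these cells in the values of Psma8 and Psme4 was not tested.

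**Figure D2:**
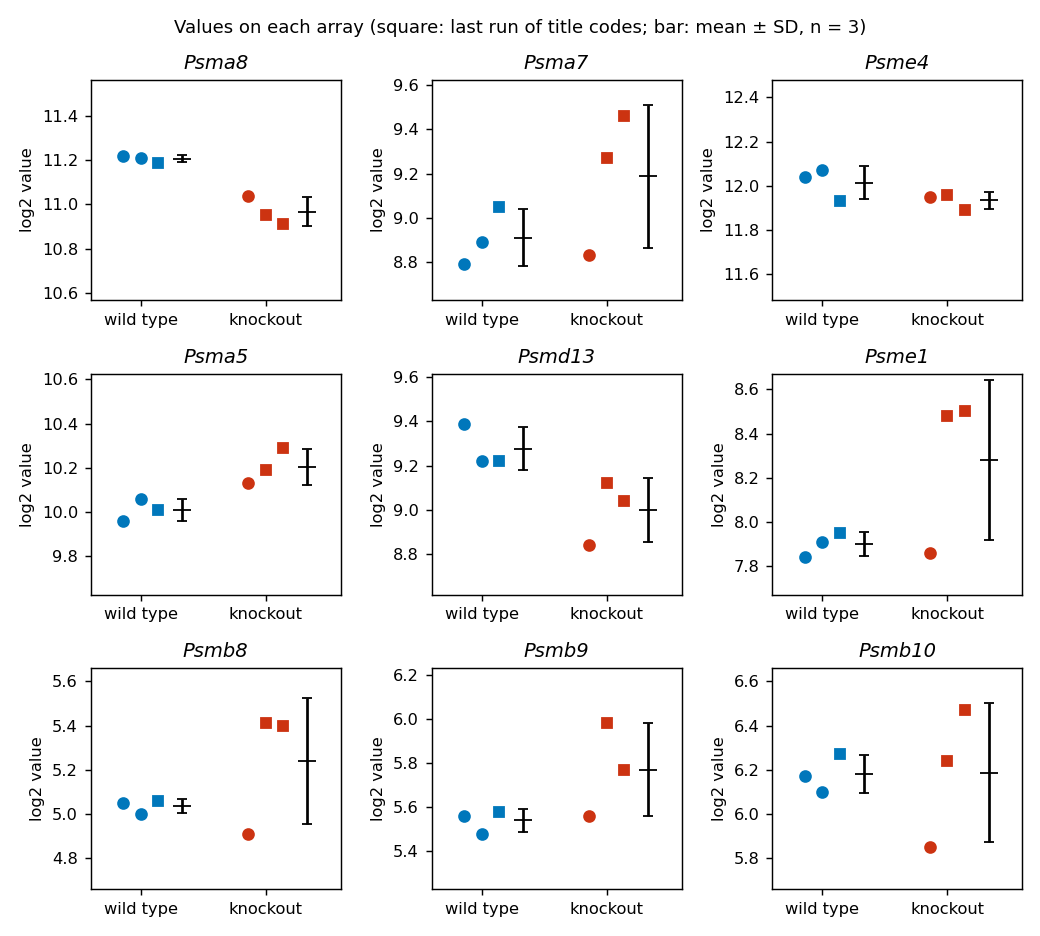
Log2 values of 9 members on each of the 6 arrays, in panels that all span 1 log2 unit; blue is wild type, red is knockout, squares are the arrays of the last run of title codes, and bars are mean ± SD (n = 3). Psma8 separates the genotypes, at 11.19 to 11.22 against 10.91 to 11.04, whereas Psme1, Psmb8 and Psma7 have knockout 1 near wild type and the other knockout arrays above it.

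In the alpha ring, 6 of the 7 general subunits lay above 0, with a median of 0.08. The median was -0.01 outside the last run of title codes and 0.02 inside it, and 0.015 without knockout 3. Psma5 stood at 9.96, 10.06 and 10.01 in wild type and at 10.13, 10.19 and 10.29 in knockout. Its groups did not overlap, and the log2 difference was 0.19 (SE 0.09, limma adjusted p = 0.344), with 0.12 outside the last run and 0.23 inside. The other probe sets of Psma5 differed by 0.10 and -0.07. Psma6 varied little, with 12.30, 12.36 and 12.33 in wild type and 12.34 on each knockout array. Psma1, Psma2, Psma3 and Psma4 differed by 0.08, 0.10, 0.03 and -0.06. A second, dim probe set of Psma3 differed by -0.37 (wild type 4.81 ± 0.18, knockout 4.44 ± 0.09, SD over 3 arrays each; limma adjusted p = 0.232), while the bright one lay at 11.35 to 11.51 on all arrays.

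The beta ring lay close to 0, with 3 genes above, 4 below, a median of -0.00 and a range from -0.06 to 0.07. Psmb5, which carries the chymotrypsin-like site, stood at 10.39, 10.25 and 10.36 in wild type and at 10.16, 10.33 and 10.41 in knockout. Psmb6, of the caspase-like site, stood at 11.26, 11.14 and 11.25 in wild type and at 11.08, 11.16 and 11.23 in knockout. Psmb7, of the trypsin-like site, stood at 10.53, 10.47 and 10.51 in wild type and at 10.38, 10.54 and 10.58 in knockout. In all 3 the groups overlapped, with log2 differences of -0.03, -0.06 and -0.00 (-0.16, -0.12 and -0.12 outside the last run, and 0.01, -0.06 and 0.05 inside it), and knockout 1 was the lowest of the 6 arrays.

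Of the immune subunits, Psmb8 and Psmb9 were above every wild-type array in 2 of 3 knockout arrays, and Psmb10 in 1. Psmb8 stood at 5.05, 5.00 and 5.06 in wild type and at 4.91, 5.41 and 5.40 in knockout, a log2 difference of 0.20 (SE 0.14, limma adjusted p = 0.524), with -0.12 outside the last run and 0.34 inside it. Psmb9 stood at 5.56, 5.48 and 5.58 in wild type and at 5.56, 5.98 and 5.77 in knockout, a log2 difference of 0.23 (SE 0.12, limma adjusted p = 0.393), with 0.04 outside the last run and 0.30 inside it. Without knockout 2 the differences were 0.118 for Psmb8 and 0.125 for Psmb9, without knockout 3 that of Psmb8 was 0.123, and without knockout 1 that of Psmb8 was 0.37. Knockout 1 was thus inside or below the wild-type range for both genes, and the groups overlapped. Psmb10 stood at 6.17, 6.10 and 6.27 in wild type and at 5.85, 6.24 and 6.47 in knockout, with a difference of 0.01 (-0.28 outside the last run, 0.08 inside it) whose sign changed between fits. The medians of the 3 genes were -0.12 outside the last run of title codes and 0.30 inside it.

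Against the constitutive subunit it replaces, each immune subunit was compared within the array. Psmb9 minus Psmb6 was -5.70, -5.66 and -5.67 in wild type and -5.52, -5.18 and -5.46 in knockout. These groups did not overlap, and the contrast was 0.29 higher in knockout (SE 0.11; exact permutation p = 0.1, adjusted 0.267), with 0.16 outside the last run and 0.35 inside, and 0.187 without knockout 2. Psmb8 minus Psmb5 was higher by 0.24 (SE 0.10; exact permutation p = 0.2, adjusted 0.267), with overlapping groups, and by 0.04 outside the last run and 0.34 inside it. Psmb10 minus Psmb7 differed by 0.01 (SE 0.13; exact permutation p = 1, adjusted 1), with -0.17 outside the last run and 0.04 inside it, and its sign changed with the scaling. As with Psma8, none of the 4 pairs could pass in this design.

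Psme1, of the interferon-inducible activator, had the largest positive difference among the 38 representative probe sets, short of the threshold. It stood at 7.84, 7.91 and 7.95 in wild type and at 7.86, 8.48 and 8.50 in knockout. The log2 difference was 0.38 (SE 0.17, 95% interval -0.00 to 0.76, limma adjusted p = 0.332), with -0.02 outside the last run of title codes and 0.54 inside it. It was 0.262 with the title sets as a block, and with an array left out it ran from 0.27 without knockout 3 to 0.59 without knockout 1. With array weights it was 0.53 at a limma adjusted p of 0.036, in a fit that called 7.07% of all probe sets. Psme3, which forms a nuclear activator of its own, stood at 10.33, 10.57 and 10.58 in wild type and at 10.32, 10.66 and 10.73 in knockout, a difference of 0.08 (limma adjusted p = 0.819) whose sign turned to -0.01 with the title sets as a block; it was -0.13 outside the last run and 0.12 inside it.

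Leukocyte and antigen presentation genes were measured beside these members. Of 12 leukocyte markers, 11 lay above 0 with a median of 0.21, and 0 passed an unadjusted p under 0.05 in limma; those with the smallest were Cd3g (0.22) and Ptprc (0.44). The mean of the list was 6.29, 6.21 and 6.43 in wild type and 6.11, 6.67 and 6.85 in knockout. This mean was high in the same 2 knockout arrays as Psme1, Psmb8 and Psmb9, but single markers differed from it. Cd3g and Cd3e were highest on knockout 1, and Cd74 on knockout 2 lay below every wild-type array. The median of the list was -0.14 outside the last run of title codes and 0.22 inside it. The dimmest of its genes was Cd3g, with a mean of 3.22. The 5 Leydig cell markers all lay above 0, with a median of 0.28 (0.02 outside the last run and 0.34 inside it). Their mean on knockout 1, knockout 2 and knockout 3 was 0.09, 0.45 and 0.45 above the mean of the wild-type arrays. Of 13 interferon and antigen presentation genes, 9 lay above 0 and 4 below, with a median of 0.08. Their median was 0.08 outside the last run and 0.05 inside it, so the list as a whole did not share the split of Psme1 and Psmb8. At that p 1 of the 13 was higher, H2-D1, beside 1561 of all 18193 genes. H2-D1, a class I molecule, stood at 7.89, 8.12 and 8.10 in wild type and at 8.09, 8.83 and 8.93 in knockout (0.08 outside the last run and 0.78 inside it; limma adjusted p = 0.263), and B2m differed by 0.42. Tap1, which shares its promoter window with Psmb9, stood at 5.57, 5.65 and 5.56 in wild type and at 5.68, 5.54 and 5.78 in knockout, a difference of 0.07. The part of leukocytes or Leydig cells in the values of Psme1 and the immune subunits was not tested.

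**Figure D3:**
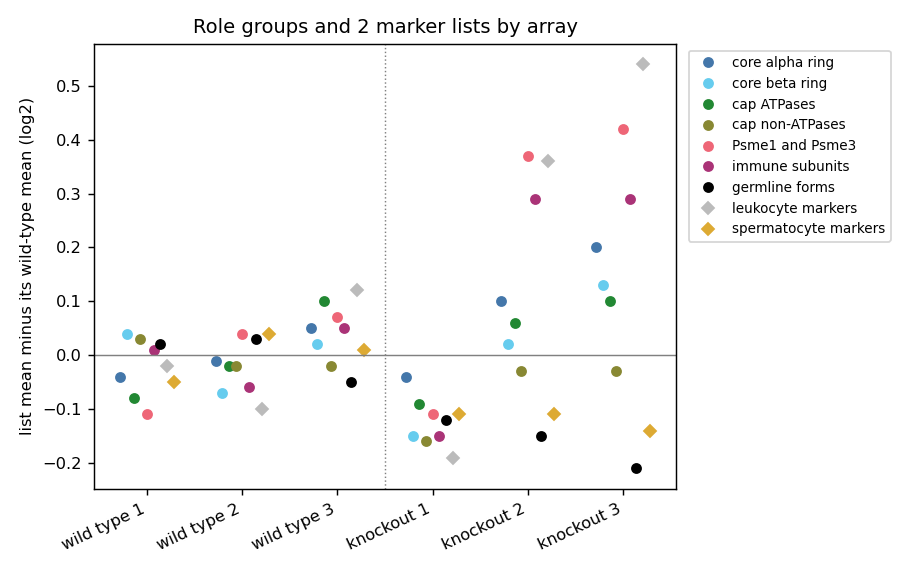
Mean log2 value of each role group on each array minus that group's mean over the wild-type arrays; circles are proteasome groups, diamonds are leukocyte and spermatocyte markers. Psme1 with Psme3 (0.37 and 0.42) and the immune subunits (0.29 on both) have high means in knockout 2 and knockout 3, as do the leukocyte markers (0.36 and 0.54). The mean of the germline forms Psma8 and Psme4 is low in all knockout arrays (-0.12, -0.15 and -0.21). Single genes differ from these means: the groups of Psme4 overlapped, and Psmb10 on knockout 2 lay inside its wild-type range. The leukocyte markers Cd3g and Cd3e were highest on knockout 1.

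Among the cap subunits, ATPases and non-ATPases lay on both sides of 0. The 6 ATPase genes ran from -0.04 for Psmc3 to 0.15 for Psmc4, with a median of 0.02. The difference of Psmc4 was 0.29 outside the last run and -0.16 inside it, and its other probe set gave 0.02. Of 11 non-ATPase genes, 8 lay below 0, with a median of -0.05 (-0.14 outside the last run and -0.02 inside it). This median was 0.01 without knockout 1 and 0.008 with array weights. Psmd13, of the lid that removes ubiquitin from substrates, stood at 9.39, 9.22 and 9.22 in wild type and at 8.84, 9.12 and 9.04 in knockout. Its groups did not overlap, and the log2 difference was -0.28 (SE 0.11, 95% interval -0.52 to -0.04, limma adjusted p = 0.285), with -0.46 outside the last run and -0.14 inside, and -0.188 with array weights. Psmd3, another lid subunit, stood at 8.51, 8.35 and 8.07 in wild type and at 8.21, 8.02 and 7.97 in knockout, with overlapping groups and a difference of -0.24 (limma adjusted p = 0.411), with -0.22 outside the last run and -0.08 inside it. It was -0.143 without wild type 1 and -0.103 with the title runs as a block. Psmd1, the large scaffold of the cap base, stood at 9.55, 9.49 and 9.37 in wild type and at 9.35, 9.31 and 9.37 in knockout, a difference of -0.13 (limma adjusted p = 0.530), with -0.17 outside the last run and -0.03 inside it. Psmd14, the deubiquitinating enzyme of the lid, differed by -0.02, and the ubiquitin receptor gene Psmd4 by 0.03.

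Other probe sets of the same genes gave a mixed picture. Psmd13 had 4, with differences of -0.28, -0.18, -0.46 and 0.12 from bright to dim. Of the 8 probe sets of Psmd11, 4 were negative, from -0.29 to -0.09, and 4 positive, from 0.02 to 0.15, and no Psmd11 probe set passed the adjusted threshold. In all, 8 member probe sets of 6 genes were lower in knockout with no overlap between groups (9.76%), beside 10.7% of the whole array. They belonged to Psma3, Psma8, Psmd7, Psmd11 with 3, Psmd13 and Psme4. Only 2 were higher without overlap (2.44%, beside 8.62% of the array), of Psma5 and a dim one of Psmc1. Without knockout 1, 24 member probe sets were higher without overlap (29.3%, beside 17.9% of the array). Without wild type 3, 7 were higher (8.54%, beside 15.7%) and 17 lower (20.7%, beside 20.0%).

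**Figure D4:**
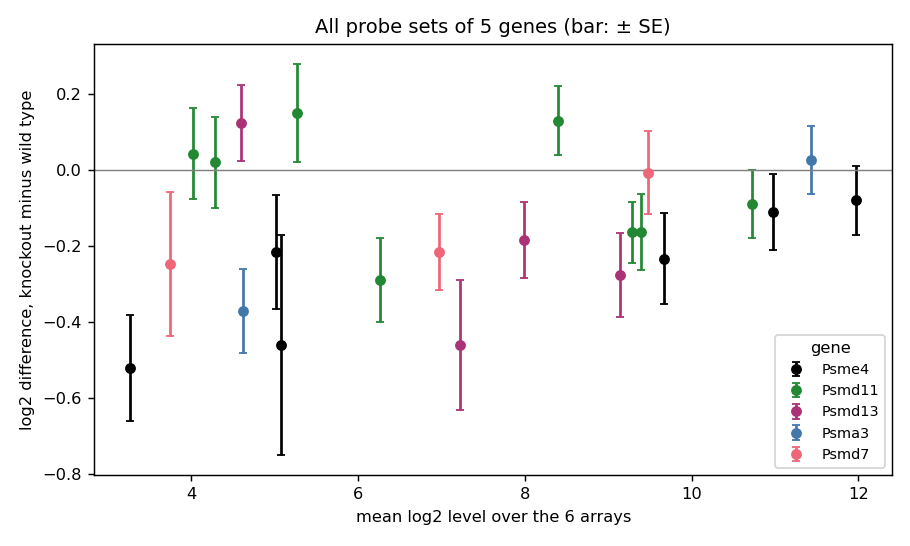
Log2 difference, knockout minus wild type (± SE), of every probe set of 5 genes against its mean log2 level over the 6 arrays. All 6 Psme4 probe sets lie below 0, from -0.08 for the brightest to -0.52 for the dimmest, whereas those of Psmd11 lie on both sides of 0. Inside the last run of title codes, which is not drawn apart, the Psme4 differences ran from -0.30 to 0.34.

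Variation between knockout arrays was larger than between wild-type arrays for most members. The SD over the knockout arrays exceeded that over the wild-type arrays for 28 of the 38 genes, beside 54.6% of all genes, with median SDs of 0.12 and 0.06. Knockout 1 was the lowest of all 6 arrays for 23 members (60.5%), beside 24.1% of all genes, and the lowest of the knockout arrays for 32 (84.2%), beside 47.0% of all genes. Among the 33 members with a level above 9 it was the lowest of the 6 for 21, beside 30.1% of genes at such levels. The upper quartile of all probe sets was 7.22 on knockout 1 and 7.32 to 7.35 on the other arrays. The part of this array-wide difference in the pattern of the members was not tested. Averaged over the 38 genes, the arrays stood at 10.01, 9.99 and 10.04 in wild type and at 9.90, 10.07 and 10.12 in knockout.

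The other genes of the pathway were near 0 as well. Of 26 measured, 12 lay above 0 and 13 below, with a median of -0.01. In limma, 2 lower and 2 higher genes had an unadjusted p under 0.05, and 0 passed after adjustment. Of all 18193 genes, 1587 were lower and 1561 higher at that unadjusted p, and 25 passed after adjustment. The higher pair were Psmd10, a chaperone of cap assembly (8.39, 8.26 and 8.52 in wild type; 8.61, 8.85 and 8.85 in knockout; difference 0.38), and Ubqln2, which shuttles ubiquitinated proteins (8.59, 8.86 and 8.63; 9.0, 9.04 and 9.08; difference 0.35). Both had a limma adjusted p of 0.220 and groups that did not overlap. The lower pair were Psme3ip1, a partner of Psme3, at -0.22 (limma adjusted p = 0.293), and Ube3c, a ubiquitin ligase bound to the proteasome, at -0.23 (limma adjusted p = 0.297). Of the others, Psmd9 differed by -0.09 and Vcp, an unfolding ATPase, by -0.19. The 5 core assembly chaperones had a median of 0.04, with Psmg3 at 0.13 and Psmg4 at -0.12. In the Leydig cell list, 5 of 5 genes lay above 0 with a median of 0.28, led by Hsd3b1 at 0.56 and Star at 0.49.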

How the data were processed

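Total RNA of whole testis was measured on 6 arrays. The deposited values are log2 per probe set, made by the authors in Expression Console 1.4.1 from Affymetrix (per the submitters' processing notes). The scale was read from the values; the sources used here do not give summarization, normalization or genome build. Of 45101 probe sets, 64 controls were left out and 45037 were fitted with no filter. Of these, 34945 had 1 gene symbol in the platform annotation, 932 several and 9160 none; all 82 member probe sets matched RefSeq (GRCm38.p6) by gene identifier. Genotype was fitted with limma 3.58.1 (lmFit, eBayes, two-sided, Benjamini-Hochberg over all probe sets, threshold 0.05) in R 4.3.3; subunit pairs were compared with an exact permutation test. Nothing says that arrays are separate animals, so the spread behind each p-value is that between samples and may be technical. Correlations between arrays ran from 0.989 to 0.998, and no array repeated another. The number of arrays limits the precision: in data simulated for this comparison, with 45037 probe sets, 24%, 84%, 96% and 100% of log2 changes of 0.5, 1, 2 and 3 were recovered.

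The members and lists were chosen with earlier results of these data known. Values on every array are given for the germline, immune and activator genes with their counterparts and for up to 4 members with the smallest p in each direction; 2 genes were named from each other list. Other members named were chosen after their values were seen. Lists of other pathway genes, interferon and antigen presentation genes, and markers of leukocytes, Sertoli cells, Leydig cells, spermatocytes and spermatids were described by counts and medians. Alternatives were blocks for replicate number and for title codes, quantile normalization, median centring, a level filter, trend with robust moderation, array weights, leaving out each array, and other choices of probe sets.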

Additional observations from a re-analysis of the deposited data

How the results depend on the processing

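The number of member probe sets past the adjusted threshold was 0 in 13 of 15 alternatives, 2 with array weights (2.44%, beside 7.07% of all probe sets in that fit) and from 0 to 1 when an array was left out (1.22% without wild type 3, beside 2.61%). At an unadjusted p under 0.05 in limma, members higher in knockout numbered 0 in the reported fit, beside 6.81% of the array. They numbered 3 with the replicate block, 3 with quantile normalization, 1 above the median level, 2 with trend and robust moderation and 8 with array weights. With an array left out they numbered from 0 to 8, beside 4.37% to 9.69% of the array. Members lower numbered 6 as reported (beside 8.31%), 11 with array weights and from 3 to 10 with an array left out (beside 4.75% to 11.5%). Higher members without overlap numbered 2 as reported (beside 8.62%), 5 after quantile normalization, 1 above the median level and 1 without probe sets ending in _s_at or _x_at. With an array left out these numbered from 2 to 24, beside 11.6% to 17.9% of the array. Lower ones then ranged from 8 to 17, beside 13.7% to 20.0%. For the other alternatives the share of the array is not given, so those counts cannot be set against it. The cause of these shifts was not tested. The median over the members ran from -0.04 to 0.09 over 15 alternatives. The median of the germline forms was -0.255 when all probe sets of a gene were averaged. Signs turned for values near 0. The median of the cap non-ATPases was 0.012 without knockout 1 and 0.008 with array weights. Psmb10 minus Psmb7 was -0.019 after quantile normalization, -0.049 and -0.065 with title runs and title sets as a block, and from -0.092 to 0.118 with an array left out. Psmb10 was -0.059 and -0.10 with those blocks and from -0.135 to 0.175 with an array left out. Psme3 was -0.041 and -0.008 with the blocks and from -0.005 to 0.202. Psmb5 was 0.007 after quantile normalization, 0.033 with array weights and from -0.088 to 0.037. Psmb7 was 0.028, 0.045 and from -0.043 to 0.057 likewise. The replicate numbers gave correlations of deviations of 0.258, 0.066 and 0.118, and 4 of 6 arrays correlated best with their own number. Replicates 1 and 3 each fall within a title set, so these correlations cannot tell pairs from sets. The labels state no pairs, and the reported fit used none. The replicate block left 0 members past the adjusted threshold. Blocks, weights and moderation do not bear on counts of overlap, and the level filter removed Psmb8, so its pair has no value there.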

Other observations

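Some bright probe sets varied between wild-type arrays where a sister probe set of the same gene did not do so in the same way. They were chosen after their values were seen. A second probe set of Psmb4 stood at 10.45, 10.84 and 11.14 in wild type and at 10.99, 11.01 and 11.06 in knockout, while the first lay between 10.94 and 11.14 on all arrays. A second probe set of Psmd6 stood at 10.51, 10.83 and 11.00 in wild type and at 10.83, 10.89 and 10.91 in knockout, while the first lay between 10.95 and 11.21. The probe set that represents Psmc4 showed the same order, with 9.75, 10.05 and 10.37 in wild type and 10.19, 10.20 and 10.23 in knockout. The other probe set of Psmc4 stood at 8.89, 8.76 and 9.06 in wild type and at 8.75, 8.97 and 9.05 in knockout. In each of these 3 genes wild type 1 was the lowest array on 1 probe set and not on the other.

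Usp14, which encodes a ubiquitin-removing enzyme bound to the cap, stood at 8.27, 8.30 and 8.18 in wild type and at 9.03, 8.34 and 8.32 in knockout. Knockout 1 was the high array here, where it was the lowest of the 6 for 23 of the 38 subunits. The difference was 0.31 (SE 0.18, limma adjusted p = 0.450), with 0.74 outside the last run of title codes and 0.15 inside it.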
